A study of Mus musculus with 30 samples.

Results

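The response of distal forelimb mesenchyme to bone morphogenetic protein 4 (BMP4) was taken as BMP4 against control cultures over days 1 and 2 of culture, with the day as a block. Its members are 8 of the 30 arrays of the series, 4 of BMP4 cultures and 4 of control cultures, chosen by the population, day and medium that the labels give. The study grew cells of E10.5 limb buds of CD-1 mouse embryos in dense culture, where limb mesenchyme forms cartilage, and measured them on Affymetrix mouse arrays. BMP4 cultures had 20 ng/ml BMP4 (R&D Systems) in the medium from the start, and control cultures had the same medium with serum and without it. The labels call the distal forelimb cells the intermediate population, the distal hindlimb cells the early population and the proximal forelimb cells the late population, and both of these were also cultured with and without BMP4 for 1 and 2 days. Each group of 1 population, day and medium has 2 arrays, described as biological replicates, with RNA from cultures of about 280 embryos. These are dissected primary cells of mixed types and not a sorted population. In such bulk samples, fewer cells of a type and less RNA per cell cannot be told apart.

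BMPs are secreted ligands that bind paired type I and type II receptor kinases, which phosphorylate SMAD1, SMAD5 and SMAD9. These SMADs enter the nucleus with SMAD4 and turn on targets such as the Id, Msx and Dlx genes together with inhibitors of the pathway itself, among them the secreted antagonist noggin and the inhibitory SMADs. In the limb bud, BMPs are known for promoting cartilage condensation and maturation, for restraining the FGF signals of the apical ridge and for patterning.

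The 8 arrays carried forelimb mesenchyme markers. Tbx5, the forelimb T-box factor, read 7.96 to 9.0 as log2(signal + 16), the scale used for all levels here, against 4.73 to 5.85 on the 8 arrays of the early population at the same days. Pitx1, the hindlimb homeobox factor, read 4.75 to 6.28, against 9.37 to 9.95 in the early population. Meis2, a factor of the proximal limb, read 7.39 to 8.58, below the 9.37 to 10.45 of the 8 proximal forelimb arrays. The distal hindlimb arrays of the early population read 9.52 to 11.1, so Meis2 did not follow distal or proximal origin alone. The mesenchyme factors Prrx1 and Twist1 read 10.69 to 11.32 and 8.27 to 9.60. Median signals were 34.6 to 46.0, and replicates correlated with r of 0.968 to 0.975 across genes, which are not independent replicates. The 3' over 5' signal ratio of the control probes lay between -0.36 and -0.04 for Gapdh and between 0.10 and 0.32 for Actb on the log2 scale. The number of arrays limits the precision of every value.

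With BMP4, 10 genes changed past the threshold in distal forelimb cells. Of 14118 genes tested, 7 rose and 3 fell at an adjusted p under 0.05, which is 0.0496% and 0.0212% of the genes and 0.0708% in all, while 1117 genes had an unadjusted p under 0.05. The genes that rose were Tbx20, Sparcl1, Nog, Isl1, Cd36, Kif26b and Csf1r, and those that fell were Cxcl12, Slc2a3 and Hspbp1. In all 10, the 4 BMP4 arrays lay on one side of the 4 control arrays, a pattern found in 3.56% of all genes (1.78% higher and 1.78% lower). The choice of the 10 by their difference on these same arrays favours that pattern, so it is no further support. Arrays with the same replicate number deviated together in all 4 groups, so the fit was also made with the 4 pairs of 1 day and number as blocks. That fit had 49 genes higher and 56 lower (0.347% and 0.397% of the genes, 0.744% in all), and it held all 10 of the genes above. With each array centred on its median, the fit without pairs had 4 genes higher and 4 lower.

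The shorter list was sensitive to single arrays. It held 1 gene without either control array of day 1, without the first BMP4 array of day 1 or without the first control array of day 2. It held 2 genes without the second BMP4 array of day 2, 4 without the second control array or the first BMP4 array of that day, and 5 without the second BMP4 array of day 1. Sparcl1 passed under all 20 alternative settings tried, Kif26b under 13, Nog and Cxcl12 under 11 and the other 6 genes under 3 to 7, with the same sign throughout.

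**Figure D1:**
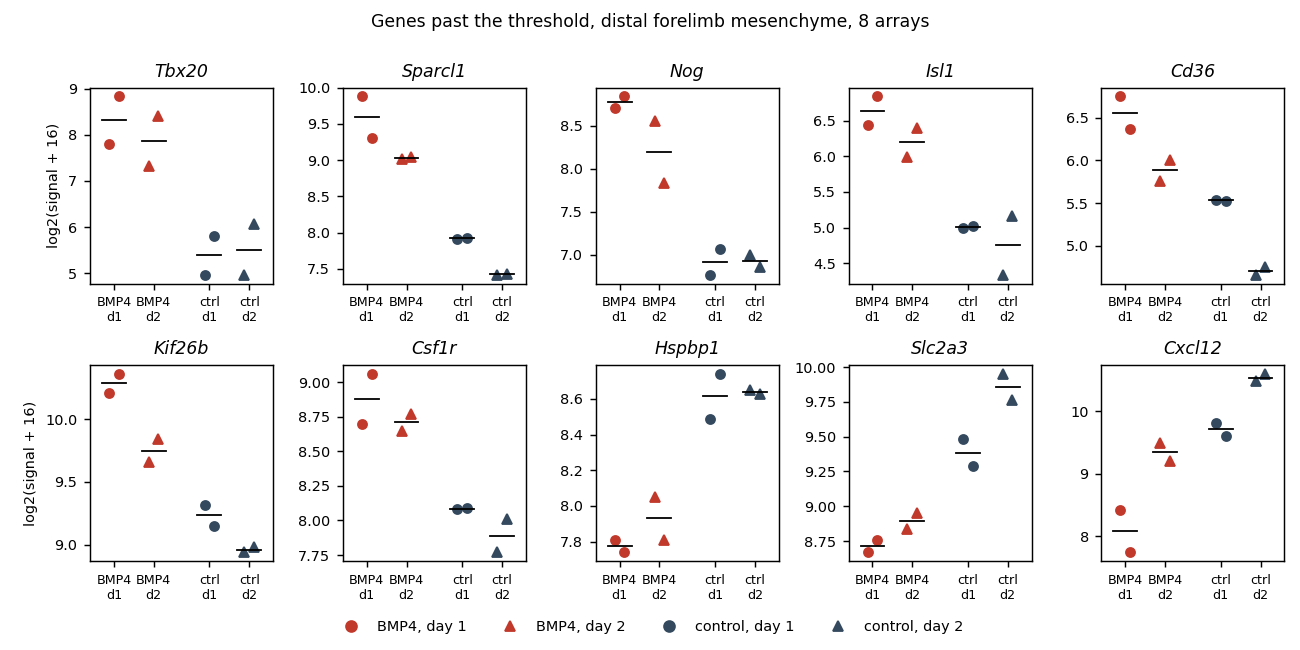
Levels of the 10 genes that passed the threshold, as log2(signal + 16) on the vertical axis, for the 8 distal forelimb arrays; red marks BMP4 and blue control cultures, circles day 1 and triangles day 2, and bars the mean of 2 arrays. In all 10 panels the 4 BMP4 arrays lie on one side of the 4 control arrays, which the choice of genes on these arrays favours.

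Tbx20, a T-box regulator of heart development, had the largest rise. It read 7.80 and 8.83 at day 1 and 7.33 and 8.40 at day 2 with BMP4, against 4.97 and 5.81 at day 1 and 4.97 and 6.06 at day 2 in control cultures. The second array of each group was the higher one in BMP4 and control cultures alike, and no BMP4 array overlapped the controls. The difference was 2.64 ± 0.35 (SE, n = 4 arrays each; adjusted p = 0.0463, and 0.000159 with the pairs as blocks). The other, dimmer probe sets of Tbx20 gave smaller rises of 0.75 and 0.91. Isl1, a LIM homeodomain factor of heart progenitors, motor neurons and the hindlimb field, read 6.44 and 6.84 at day 1 and 5.99 and 6.40 at day 2 with BMP4, against 4.99, 5.02, 4.34 and 5.17 in control cultures. Every BMP4 array lay above every control array, and the difference was 1.54 ± 0.21 (adjusted p = 0.0492), while a dimmer probe set of Isl1 gave 0.75.

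Nog and Sparcl1, which encode secreted proteins, rose. Nog, the antagonist noggin that binds BMPs outside the cell, read 8.71 and 8.84 at day 1 and 8.56 and 7.83 at day 2 with BMP4, against 6.77, 7.07, 7.00 and 6.86 in control cultures. Its controls were nearly flat over the days, and its lowest value with BMP4 was one of the day 2 arrays. The difference was 1.56 ± 0.19 (adjusted p = 0.0269). Sparcl1, a secreted glycoprotein of the SPARC family, read 9.88 and 9.31 at day 1 and 9.02 and 9.05 at day 2 with BMP4, against 7.91, 7.93, 7.42 and 7.43 in control cultures. Replicates of the controls differed by little, and the difference of 1.65 ± 0.13 had the smallest adjusted p of all genes (0.00197).

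Kif26b, Cd36 and Csf1r, which rose, act in the cytoskeleton or at the cell surface. Kif26b, a kinesin-family protein, averaged 10.02 ± 0.32 with BMP4 and 9.09 ± 0.17 in control cultures (SD, n = 4 arrays of both days), a difference of 0.92 ± 0.10 (SE; adjusted p = 0.0232). Cd36, a scavenger receptor that takes up fatty acids and is found on macrophages among other cells, averaged 6.22 ± 0.43 with BMP4 and 5.12 ± 0.48 in control cultures (difference 1.1 ± 0.16, adjusted p = 0.0492). Csf1r, the receptor for macrophage colony-stimulating factor, averaged 8.80 ± 0.18 with BMP4 and 7.99 ± 0.15 in control cultures (difference 0.81 ± 0.11, adjusted p = 0.0492). Its dimmer probe sets gave 0.61 and 0.35.

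Cxcl12, a chemokine that guides migrating cells including limb muscle precursors, had the largest fall past the threshold. With BMP4 it read 8.42 and 7.74 at day 1 and 9.49 and 9.21 at day 2, against 9.81, 9.61, 10.48 and 10.60 in control cultures. It stood higher at day 2 than at day 1 in both media, with the BMP4 arrays below the controls of the same day, and the highest of them below the lowest control. The difference was -1.41 ± 0.16 (adjusted p = 0.0268). Of the other probe sets of Cxcl12, a bright one gave -1.65 and a dim one 0.17. Slc2a3, a glucose transporter, averaged 8.80 ± 0.12 with BMP4 and 9.62 ± 0.29 in control cultures (difference -0.81 ± 0.11, adjusted p = 0.0463). Hspbp1, a nucleotide exchange factor of the HSP70 chaperones, averaged 7.85 ± 0.13 with BMP4 and 8.63 ± 0.10 in control cultures (difference -0.77 ± 0.11, adjusted p = 0.0492).

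Of the known targets and feedback inhibitors of BMP signalling, 23 of 24 were tested. Nog alone rose, and with the pairs as blocks 4 rose and none fell, namely Nog, Dlx2, Msx2 and Grem1. The median difference of the list was 0.21, beside 0.01 for all genes, and 16 members were positive and 7 negative. Dlx2, a distal-less homeobox factor, read 8.05 and 9.92 at day 1 and 6.79 and 7.72 at day 2 with BMP4, against 5.82, 6.13, 5.15 and 6.27 in control cultures. BMP4 arrays were above all controls and higher at day 1 than at day 2, with the second replicate the higher one on both days. Its difference was 2.28 ± 0.46 (adjusted p = 0.16, and 0.0128 with the pairs as blocks). Msx2, a homeobox factor of distal limb mesenchyme, read 9.44, 10.39, 8.61 and 9.32 with BMP4, against 8.23, 8.52, 7.72 and 8.78 in control cultures, so that 1 BMP4 array of day 2 overlapped the controls (1.13 ± 0.30, adjusted p = 0.276, and 0.0241 with the pairs as blocks). Grem1, another secreted BMP antagonist, read 7.77, 6.65, 7.61 and 6.98 with BMP4, against 6.77, 6.15, 6.15 and 6.26 in control cultures, with overlap at day 1 (0.92 ± 0.26, adjusted p = 0.309, and 0.0397 with the pairs as blocks).

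Other direct readouts of the pathway had smaller differences. Id1, a helix-loop-helix inhibitor usually taken as an immediate BMP target, read 10.53, 10.31, 9.69 and 9.90 with BMP4, against 10.76, 9.82, 9.70 and 10.11 in control cultures. The groups overlapped, with a difference of 0.01 ± 0.19 (adjusted p = 0.996), and Id3 and Id2 stood at 0.00 and 0.14. Smad6, an inhibitory SMAD, was at 0.60 ± 0.22 (adjusted p = 0.538) and was highest on the second BMP4 array of day 1, at 10.68. Bambi, a decoy receptor without a kinase domain, was at 0.81 and Smad7 at 0.29. The list median was 0.59 at day 1 and 0.03 at day 2.

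The promoters of Dlx2, Msx2 and Grem1 are shown because these target genes moved together in the paired fit, after their values had been seen. Each sequence runs 5' to 3' on the gene's strand, over 300 bases that end shortly after the start site in RefSeq GRCm38.p6, and capitals mark GGCGCC, a GC-rich SMAD1/5 element that reads the same on both strands. Dlx2 lies at chr2:71546705-71547004 (minus strand), Msx2 at chr13:53472731-53473030 (minus strand) and Grem1 at chr2:113758599-113758898 (minus strand).
Dlx2: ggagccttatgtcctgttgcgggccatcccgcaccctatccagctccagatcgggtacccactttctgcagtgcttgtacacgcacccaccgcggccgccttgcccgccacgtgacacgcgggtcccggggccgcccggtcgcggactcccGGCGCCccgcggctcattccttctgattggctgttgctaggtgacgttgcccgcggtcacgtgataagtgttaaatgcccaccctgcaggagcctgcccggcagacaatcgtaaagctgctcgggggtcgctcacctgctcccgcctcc
Msx2: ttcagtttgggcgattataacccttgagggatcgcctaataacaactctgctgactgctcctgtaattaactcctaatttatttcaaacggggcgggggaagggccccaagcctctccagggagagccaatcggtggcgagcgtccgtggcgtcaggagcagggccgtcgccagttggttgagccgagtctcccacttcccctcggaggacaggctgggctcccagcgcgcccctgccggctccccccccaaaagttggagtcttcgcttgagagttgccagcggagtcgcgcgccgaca
Grem1: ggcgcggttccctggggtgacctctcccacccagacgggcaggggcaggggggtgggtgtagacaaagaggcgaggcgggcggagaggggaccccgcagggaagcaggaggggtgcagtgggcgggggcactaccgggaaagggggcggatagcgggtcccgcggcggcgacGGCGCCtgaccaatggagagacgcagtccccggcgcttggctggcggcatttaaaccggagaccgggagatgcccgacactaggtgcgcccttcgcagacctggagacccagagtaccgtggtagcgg
The element occurs once in the Dlx2 window, starting at position -99 from the start site, and once in the Grem1 window, at -78. The Msx2 window holds none. GGCGCC was found in 11.9% of 32851 promoters of the table. Of the 24 target genes, 13 had a promoter in the table and 6 of these held the element in any of their promoters, namely Id2, Id4, Smad9, Dlx2, Grem1 and Chrd. That count is by gene and the 11.9% is by single promoter, so these unlike measures cannot show whether the element is enriched. Enrichment was not tested. The SMAD palindrome GTCTAGAC, which also reads the same on both strands and does not overlap GGCGCC, was in none of the 3 windows and in 0.213% of all promoters. The promoter of Nog is not shown. A match is a string of letters in a window and says nothing of binding.

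Genes for BMP ligands, receptors and SMADs did not rise in either fit. Of 16 tested members none passed with the day as the block, and 2 fell with the pairs as blocks; the list median was -0.07. Bmp4 itself, whose probe set measures the cells' own transcript and not the added protein, read 8.69, 9.49, 8.99 and 9.65 with BMP4, against 9.30, 10.19, 9.44 and 10.18 in control cultures. Each BMP4 array was below the control array of the same day and number, although the groups overlapped (-0.57 ± 0.26, adjusted p = 0.639, and 0.0203 with the pairs as blocks). Rgmb, a membrane co-receptor for BMPs, was the other member, at -0.64 ± 0.16 (adjusted p = 0.246, and 0.0454 with the pairs as blocks), and its 5 dimmer probe sets gave -0.28, -0.26, -0.07, 0.04 and 0.45. Bmp2, a related ligand, averaged 7.77 ± 0.27 with BMP4 and 8.32 ± 0.25 in control cultures, with no overlap of the arrays (-0.55 ± 0.17, adjusted p = 0.388). The type II receptor Bmpr2 stood at 0.34 and the type I receptors Bmpr1a and Bmpr1b at 0.07 and 0.21.

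**Figure D2:**
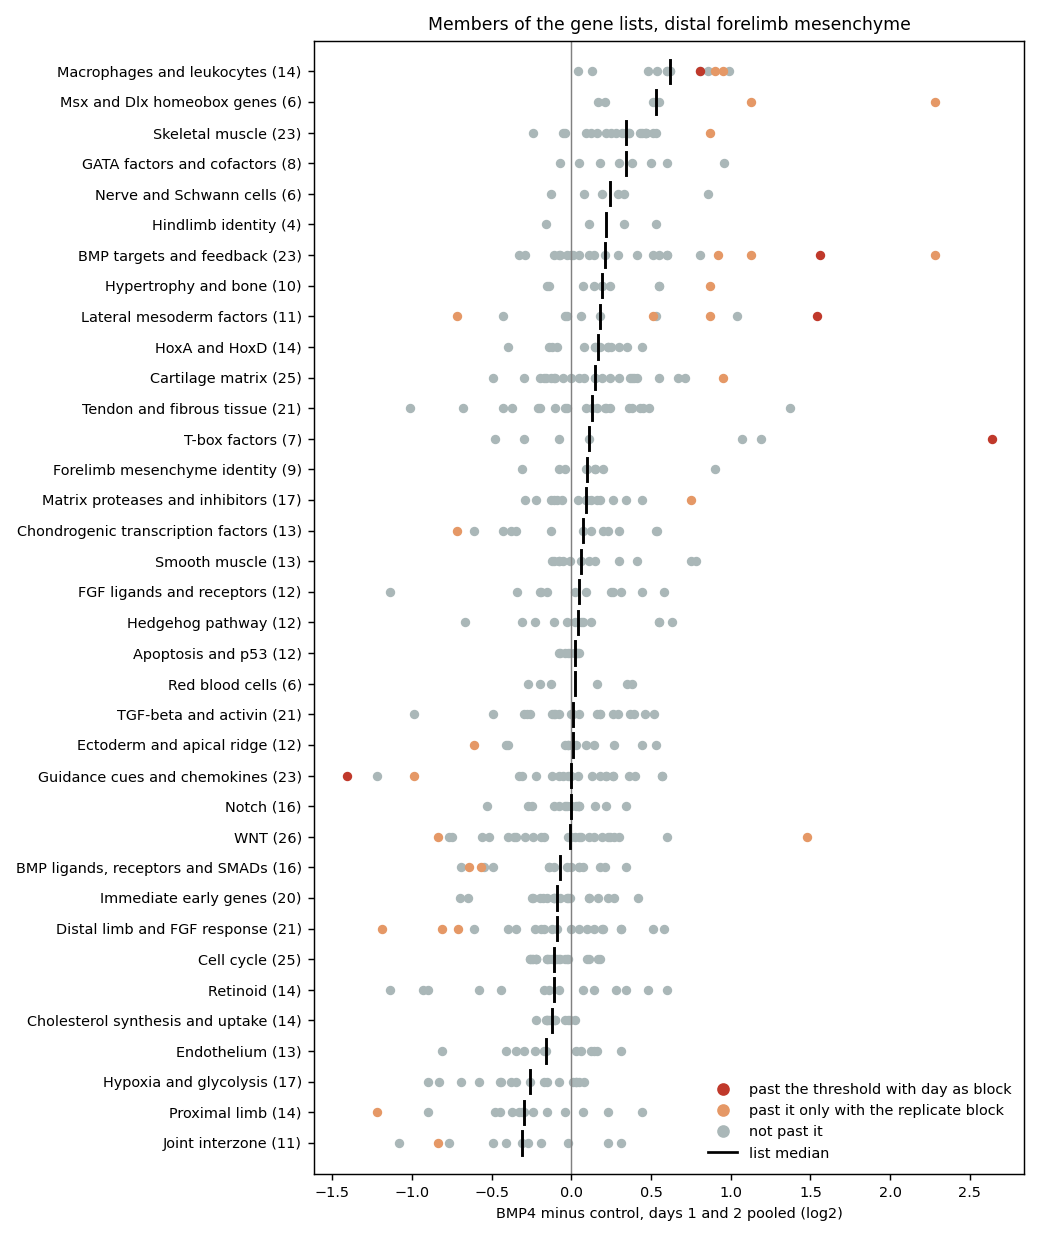
BMP4 minus control differences (log2) of the tested members of 36 gene lists in distal forelimb cells, days pooled, with the number tested in brackets; bars are list medians, red points passed with the day as the block and orange points only with the pairs as blocks. Macrophage and leukocyte genes have the highest median, 0.62, and joint interzone genes the lowest, -0.31.

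Homeobox, T-box and heart-field factors held further members that passed only with the pairs as blocks. In the Msx and Dlx family all 6 tested members were positive with a median of 0.53, and Dlx2 and Msx2 were the 2 that passed. Msx1 stood at 0.51 ± 0.20 (adjusted p = 0.553) and Dlx5, a factor of skeletal differentiation, at 0.55 ± 0.18 (adjusted p = 0.411). Of 7 tested T-box factors only Tbx20 passed, in both fits, with a list median of 0.11. Tbx2, a repressor at the limb margins, read 6.44, 7.92, 5.47 and 6.32 with BMP4, against 5.47, 5.29, 5.41 and 5.20 in control cultures. The spread among its BMP4 arrays was wide, and the difference of 1.19 ± 0.36 did not pass (adjusted p = 0.366, and 0.169 with the pairs as blocks); Tbx3, its close relative, stood at 1.07 ± 0.30 (adjusted p = 0.309).

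Of 11 tested factors of the lateral mesoderm, Isl1 rose, and with the pairs as blocks 3 rose and 1 fell (median 0.18). Mef2c, a factor of heart, muscle and growth-plate cartilage, read 9.71, 9.16, 9.45 and 9.27 with BMP4, against 8.39, 8.45, 8.51 and 8.79 in control cultures. These groups did not overlap (0.87 ± 0.14, adjusted p = 0.084, and 0.0189 with the pairs as blocks). Hand2, a helix-loop-helix factor of the posterior limb, was 0.51 ± 0.16 higher (adjusted p = 0.411, and 0.0267 with the pairs as blocks), and Foxc2, a forkhead factor, was at -0.72 ± 0.29 (adjusted p = 0.591, and 0.0400 with the pairs as blocks). None of the 8 GATA factors and cofactors passed in either fit, with a median of 0.34. Gata3 read 5.97, 8.31, 6.20 and 7.01 with BMP4, against 5.53, 5.97, 4.99 and 7.14 in control cultures, where the second replicates were high in both media (0.96 ± 0.55, adjusted p = 0.746). Gata6 stood at -0.07 ± 0.23 (adjusted p = 0.973).

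Genes of the FGF response were among those that passed with the pairs as blocks. Of 21 tested genes of the distal limb and FGF response none passed with the day as the block, and with the pairs as blocks Etv4, Spry1 and Dusp6 fell and none rose (median -0.09). Etv4, an ETS factor induced by FGF, read 5.74, 6.21, 5.15 and 6.01 with BMP4, against 7.14, 7.03, 6.52 and 7.19 in control cultures. All BMP4 arrays were below all controls on both days (-1.19 ± 0.22, adjusted p = 0.129, and 0.00795 with the pairs as blocks). Spry1, an inhibitor of receptor tyrosine kinase signalling, averaged 7.61 ± 0.28 with BMP4 and 8.42 ± 0.24 in control cultures, again with no overlap (-0.81 ± 0.17, adjusted p = 0.172, and 0.00795 with the pairs as blocks). Dusp6, a phosphatase of ERK, was at -0.71 ± 0.16 (adjusted p = 0.232, and 0.00629 with the pairs as blocks). Other genes of this kind stood nearer to 0, Etv5 at -0.23, Il17rd at -0.35, Spry2 at -0.17 and Spry4 at 0.05. The receptor Fgfr2 was at 0.58 ± 0.12 (adjusted p = 0.169), and the distal Hox genes Hoxa13 and Hoxd13 at -0.40 and -0.12.

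WNT pathway genes divided, with 1 of 26 higher and 1 lower in the paired fit and none with the day as the block (median -0.01). Dkk1, a secreted WNT antagonist, read 10.37, 11.61, 9.30 and 9.45 with BMP4, against 8.99, 9.17, 8.13 and 8.51 in control cultures. The second BMP4 array of day 1 was the highest, and no BMP4 array overlapped the controls of its day (1.48 ± 0.26, adjusted p = 0.103, and 0.0117 with the pairs as blocks). Sfrp2, a secreted frizzled-related protein, averaged 10.49 ± 0.43 with BMP4 and 11.33 ± 0.22 in control cultures (-0.84 ± 0.18, adjusted p = 0.181, and 0.0117 with the pairs as blocks). Axin2, a general readout of WNT signalling, stood at -0.35 (adjusted p = 0.817).

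Cartilage genes did not pass with the day as the block. Of 25 tested cartilage matrix genes none did, and with the pairs as blocks Chst11 rose and none fell; the median was 0.15, and 16 members were positive. Chst11, which sulfates chondroitin chains, read 10.28, 9.20, 9.76 and 9.45 with BMP4, against 8.70, 8.31, 8.89 and 9.0 in control cultures, without overlap (0.95 ± 0.22, adjusted p = 0.235, and 0.0269 with the pairs as blocks). A dimmer probe set of Chst11 gave 0.22. Col2a1, the main cartilage collagen, read 11.72, 11.48, 12.17 and 11.83 with BMP4, against 11.92, 11.50, 11.82 and 11.77 in control cultures, so the groups overlapped at 0.05 ± 0.12 (adjusted p = 0.97). Acan, the proteoglycan aggrecan, averaged 8.23 ± 0.70 with BMP4 and 7.52 ± 0.64 in control cultures, and its BMP4 arrays were above the controls of the same day (0.71 ± 0.22, adjusted p = 0.394). Sox9, the factor that starts cartilage formation, stood at 0.23 ± 0.17 (adjusted p = 0.841), and its partner Sox5 at 0.54 ± 0.18 (adjusted p = 0.478). None of 13 chondrogenic transcription factors passed with the day as the block, and Foxc2 fell with the pairs as blocks (median 0.07).

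The summed signal of the cartilage matrix genes differed between replicates of BMP4 cultures. At day 1 it was 16700 and 10200 with BMP4, against 13400 and 10700 in control cultures, and at day 2 it was 26600 and 19800, against 20000 and 19600. The first BMP4 array of each day was the highest, and the second lay at or near the controls. Hypertrophy and bone genes had a median of 0.19 over 10 tested members, and Mef2c was the member that rose in the paired fit. Joint interzone genes had a median of -0.31, with 9 of 11 tested members negative, and in the paired fit Sfrp2 fell. Osr2, a zinc-finger factor of joints, was at -1.08 ± 0.31 (adjusted p = 0.327). Tendon and fibrous tissue genes had a median of 0.13 and none of 21 passed in either fit, with Col14a1, a collagen of fibrous tissue, at 1.37 ± 0.45 and Ogn, a small proteoglycan, at -1.01 ± 0.23 (adjusted p = 0.427 and 0.232).

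Macrophage and leukocyte genes were higher in BMP4 cultures as a list. All 14 tested members were positive, with a median of 0.62, and 9 had both BMP4 arrays above both controls on each day, a pattern that 4.19% of all genes had in this direction. Csf1r rose, and with the pairs as blocks Ctss and Tyrobp rose as well. Ctss, a lysosomal protease of antigen-presenting cells, read 8.57, 8.89, 8.88 and 9.13 with BMP4, against 7.93, 8.06, 7.71 and 7.96 in control cultures, without overlap (0.95 ± 0.14, adjusted p = 0.0544, and 0.00795 with the pairs as blocks). Tyrobp, an adaptor of myeloid receptors, averaged 7.53 ± 0.24 with BMP4 and 6.63 ± 0.33 in control cultures (adjusted p = 0.084, and 0.0132 with the pairs as blocks). The complement genes C1qa, C1qb and C1qc stood at 0.60, 0.86 and 0.99, and Coro1a and Mrc1 at 0.04 and 0.13.

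The summed signal of the 14 genes was 2040 and 2460 at day 1 and 2100 and 2320 at day 2 with BMP4, against 1410, 1380, 1050 and 1230 in control cultures. No array of either medium overlapped the other. This sum followed the medium like the genes named above, and its part in their differences was not tested. Among single members, Csf1r, Cd68 and Adgre1 stood at 0.81, 0.62 and 0.62 (adjusted p = 0.0492, 0.246 and 0.235), while Coro1a and Mrc1 were near 0 at 0.04 and 0.13. Outside the fixed list, genes known from macrophages were also among those that passed with the pairs as blocks and were picked out after their values were seen. Mpeg1, a pore-forming protein of macrophages, was 1.63 ± 0.31 higher (adjusted p = 0.138, and 0.0329 with the pairs as blocks). Gpnmb, a membrane glycoprotein of phagocytes, was 1.43 ± 0.25 higher (adjusted p = 0.103, and 0.00795 with the pairs as blocks). Lyz1, a lysozyme gene other than the Lyz2 of the list, was 1.56 ± 0.24 higher (adjusted p = 0.076, and 0.00795 with the pairs as blocks). The other probe sets of Lyz1 gave 1.93 and 0.19.

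**Figure D3:**
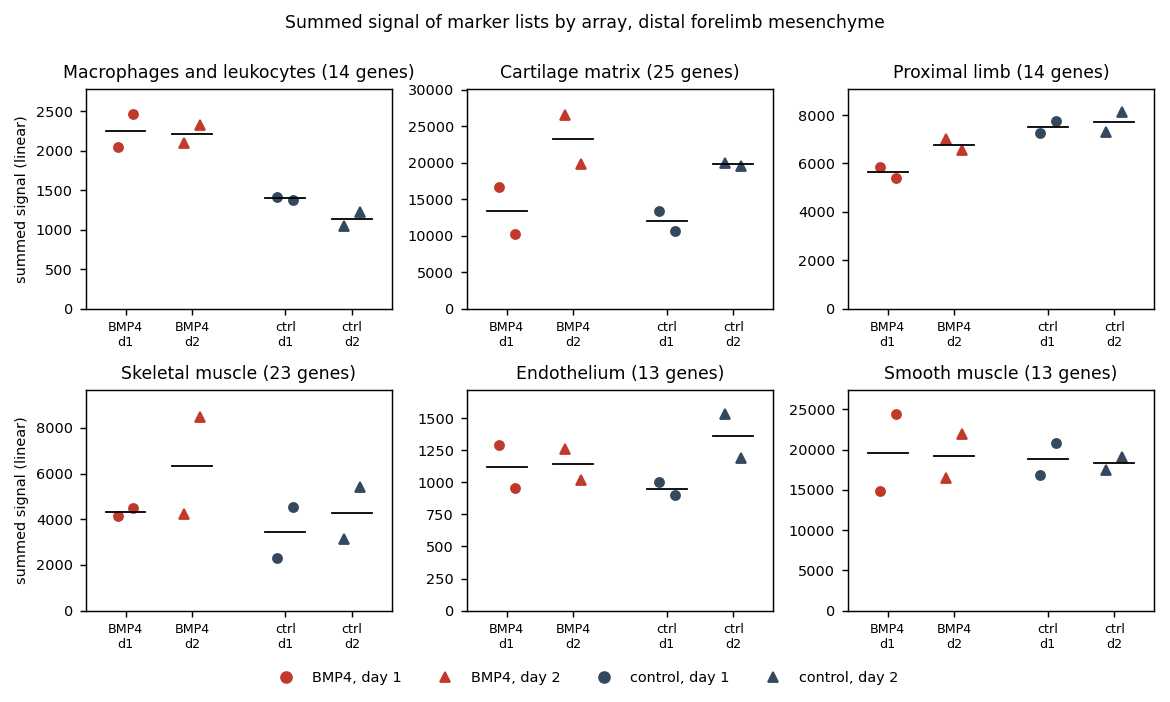
Summed linear signal of the tested members of 6 marker lists on the 8 distal forelimb arrays; red marks BMP4 and blue control cultures, circles day 1 and triangles day 2, and bars the mean of 2 arrays. The macrophage sum is 2040 to 2460 with BMP4 and 1050 to 1410 in control cultures, the proximal limb sum is 5420 to 7010 with BMP4 and 7240 to 8130 in control cultures, and the other 4 sums overlap.

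Summed marker signals of skeletal muscle, endothelium, smooth muscle, red blood cells, nerve and ectoderm overlapped between the media with the days pooled. The nerve and Schwann cell sum stood higher with BMP4 within each day, without overlap. At day 1 it was 614 and 642 with BMP4, against 474 and 594 in control cultures. At day 2 it was 547 and 538, against 389 and 450. Of its 6 tested members, none had the media apart on both days. Within each day the arrays of 2 of 23 skeletal muscle genes stood higher and those of 2 of 13 endothelial genes lower with BMP4, without overlap. Over all genes, 4.19% stood higher and 3.97% lower in this way, so such small counts say little of either list. Skeletal muscle genes had a median of 0.34 with 20 of 23 tested members positive, and only Mef2c, which cartilage also uses, rose in the paired fit. Their summed signal was 4120 to 8460 with BMP4 and 2320 to 5410 in control cultures, and the second array was the higher one in all 4 groups. Myod1, the muscle determination factor, stood at 0.47 ± 0.20 (adjusted p = 0.607). Endothelial genes had a median of -0.16 and none of 13 passed, with the receptor Tek at -0.81 ± 0.18 (adjusted p = 0.232). Smooth muscle genes had a median of 0.06, red blood cell genes of 0.02 and nerve and Schwann cell genes of 0.24, with no call in either fit. Of 12 ectoderm and apical ridge genes with a median of 0.01, the keratin Krt18 fell in the paired fit (-0.61 ± 0.23, adjusted p = 0.553, and 0.0470 with the pairs as blocks).

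Genes of the proximal limb were lower as a list, at a median of -0.30 with 11 of 14 tested members negative. None passed with the day as the block, and Irx3, an Iroquois homeobox factor of the proximal limb, fell with the pairs as blocks. It read 6.79, 6.53, 8.04 and 7.77 with BMP4, against 8.27, 8.38, 8.40 and 8.96 in control cultures. BMP4 arrays of day 1 were the lowest and none overlapped the controls (-1.22 ± 0.20, adjusted p = 0.084, and 0.0292 with the pairs as blocks). Rarb, a retinoic acid receptor, was at -0.90 ± 0.28 (adjusted p = 0.382), Shox2 at -0.31 and Meis2 at 0.23. HoxA and HoxD genes had a median of 0.17, forelimb mesenchyme identity genes of 0.10 and hindlimb identity genes of 0.22, with no call in either fit.

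Further genes, most of them outside these lists, fell with the pairs as blocks, and those described here were chosen after their values were seen. Tac1, the precursor of the neuropeptide substance P, read 6.91, 5.60, 7.5 and 5.22 with BMP4, against 8.97, 7.95, 8.84 and 7.88 in control cultures. Both media were lower on the second array of a group, and the groups did not overlap (-2.11 ± 0.48, adjusted p = 0.232, and 0.00246 with the pairs as blocks), while a dim second probe set gave 0.08. Gas2, an actin-associated protein named for growth arrest, was at -1.62 ± 0.39 (adjusted p = 0.235, and 0.00246 with the pairs as blocks), and a dim second probe set gave 0.18. Ebf2, Ebf3 and Ebf1, related helix-loop-helix factors of mesenchyme, were at -1.42, -1.0 and -0.91 (adjusted p = 0.398, 0.232 and 0.514, and 0.00795, 0.0332 and 0.00499 with the pairs as blocks). Meox2, a homeobox factor of somites and limb muscle, was at -1.32 ± 0.31 and Hic1, a transcriptional repressor, at -1.15 ± 0.27. Shisa3 and Shisa2, of a family first described in frog embryos as inhibitors of WNT and FGF receptor maturation, were at -1.25 ± 0.34 and -1.20 ± 0.29, and Lmx1b, the factor of dorsal limb identity, at -0.78 ± 0.24. Adamts8, a metalloprotease, was at -1.36 ± 0.22 (adjusted p = 0.084, and 0.0107 with the pairs as blocks) and Dsg2, the desmosomal cadherin desmoglein, at -1.20 ± 0.20 (adjusted p = 0.084, and 0.0315 with the pairs as blocks).

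Rises in the paired fit included secreted signals and matrix genes. Adcyap1, the precursor of the neuropeptide PACAP, read 7.26, 6.94, 7.92 and 6.99 with BMP4, against 5.96, 4.73, 6.18 and 5.50 in control cultures, without overlap (1.69 ± 0.30, adjusted p = 0.103, and 0.00314 with the pairs as blocks). Lama1, a laminin chain of basement membranes, read 5.83, 7.69, 5.38 and 7.29 with BMP4, against 5.15, 4.89, 4.25 and 5.33 in control cultures. Its BMP4 arrays were far higher for the second replicates (1.64 ± 0.48, adjusted p = 0.347, and 0.0451 with the pairs as blocks). Penk, the enkephalin precursor, was 1.1 ± 0.25 higher, Pcsk6, a proprotein convertase that processes TGF-beta family ligands, 1.00 ± 0.16, Cdkn2b, an inhibitor of cyclin-dependent kinases, 0.99 ± 0.25, and Igfbp5, an IGF-binding protein, 0.67 ± 0.19 (adjusted p = 0.232, 0.084, 0.25 and 0.325, and 0.0184, 0.0128, 0.00795 and 0.0184 with the pairs as blocks). Of the 105 genes of this fit, 78 had arrays that did not overlap on either day, beside 8.16% of all genes (4.19% higher, 3.97% lower), and all 105 had the same sign on both days; the choice of genes by their pooled difference favours both.

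**Figure D4:**
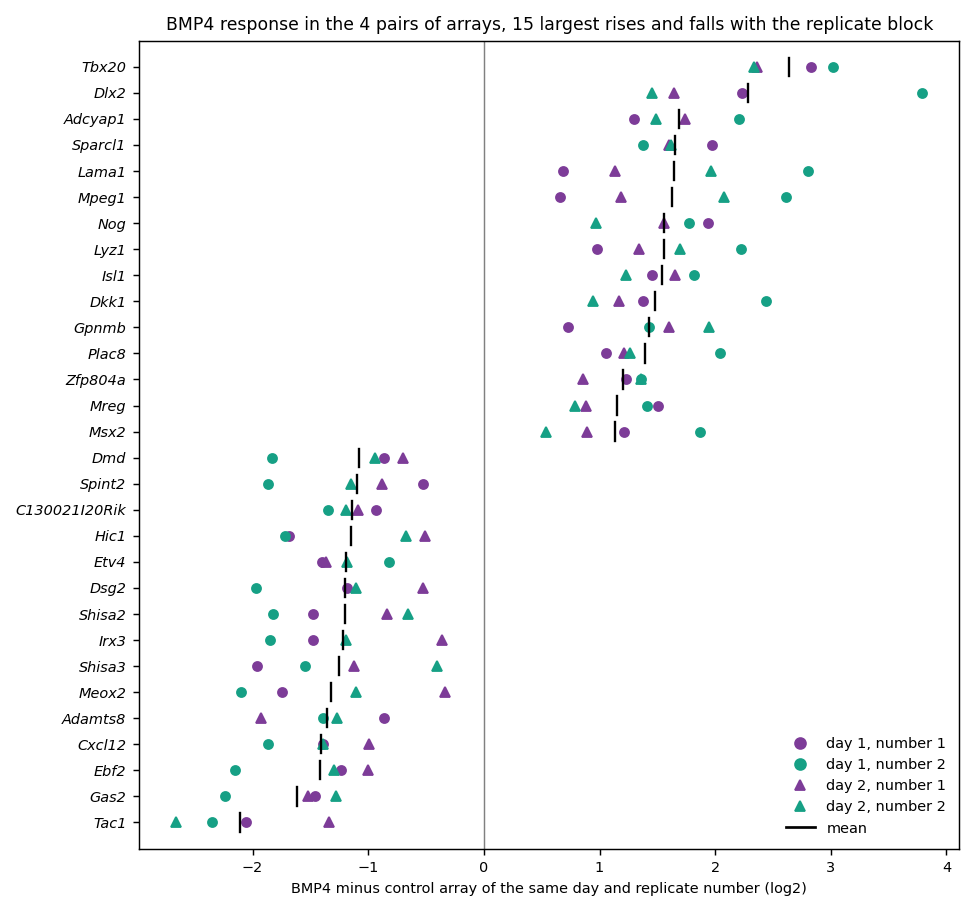
BMP4 minus control difference (log2) of the 4 array pairs of 1 day and replicate number, for the 15 highest and the 15 lowest genes past the threshold in the fit with the pairs as blocks; circles are day 1, triangles day 2, purple number 1, green number 2, and bars the mean. All 4 points of each gene lie on one side of 0, from Tbx20 at a mean of 2.64 to Tac1 at -2.11. The choice of genes by this fit favours that.

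Programmes of metabolism and growth held no call in either fit. Cell cycle genes had a median of -0.11 with 21 of 25 members negative, cholesterol synthesis and uptake genes of -0.12 with 13 of 14 negative, and hypoxia and glycolysis genes of -0.26 with 12 of 17 negative. Vegfa, the vascular growth factor induced by low oxygen, stood at -0.58 ± 0.13 (adjusted p = 0.232) and Birc5, a mitotic survivin, at -0.26 ± 0.11 (adjusted p = 0.61). Slc2a3, described above, is also a gene of glucose uptake and belonged to none of these lists. Immediate early genes had a median of -0.09, apoptosis and p53 genes of 0.02, Notch genes of 0.00, hedgehog genes of 0.04, TGF-beta and activin genes of 0.01, retinoid genes of -0.11, and FGF ligands and receptors of 0.05. None of those 7 lists had a call in either fit. Among 17 matrix proteases and inhibitors (median 0.09), only the paired fit had a rise, the metalloprotease Adam12 (0.75 ± 0.14, adjusted p = 0.129, and 0.0185 with the pairs as blocks). Of 23 guidance cues and chemokines (median 0.00) Cxcl12 fell in both fits. The Eph receptor Epha3 fell only in the paired one (-0.99 ± 0.41, adjusted p = 0.599, and 0.00795 with the pairs as blocks). Ntn1, the cue netrin, was at -1.22 ± 0.24 and its groups did not overlap (adjusted p = 0.153, and 0.0569 with the pairs as blocks).

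Within single days no gene passed, which is 0% of 14118 on each day. In limma's fit of 4 group means, 799 genes had an unadjusted p under 0.05 at day 1 and 485 at day 2. This fit was also made with the replicate number as a block shared by both days, in place of the pairs. With that shared block 58 genes passed at day 1 (31 higher, 27 lower) and 5 at day 2 (4 higher, 1 lower). Without the first BMP4 array of day 1, 8 genes passed at day 1, and without the second control array of that day 1 gene did. Without the second control array of day 2, 1 gene passed at day 2. Centring on the array median gave 5 genes at day 1, 3 higher and 2 lower. The difference of the response between the days had no call either (0% of the genes, 301 at an unadjusted p under 0.05, and none with the shared block). Dlx2 was at 3.02 at day 1 and 1.55 at day 2, Dkk1 at 1.91 and 1.06, Msx2 at 1.54 and 0.72 and Meox2 at -1.93 and -0.72. Sparcl1 stood at 1.68 and 1.61, Csf1r at 0.80 and 0.82 and Cd36 at 1.02 and 1.18.

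The response of distal forelimb cells was set against that of distal hindlimb cells in 1 fit of the 24 arrays of days 1 and 2. Of 14947 genes, 40 responded more positively in the intermediate and 44 in the early population (0.268% and 0.294%, 0.562% in all). With the replicate number as a block shared by all groups (the replicate block), 122 and 154 did. With each array centred on its median the split was 59 to 21. This fit had 57 rises and 33 falls for the response of the intermediate population itself (0.381% and 0.221%, 0.602% in all). It had 855 and 870 for that of the early one (5.72% and 5.82%, 11.5% in all), and 48 and 13 for that of the late one (0.321% and 0.087%, 0.408% in all). The 84 genes became 227 without the second BMP4 array of day 1 of the intermediate population and 149 without the first BMP4 array of day 2 of the early one. Without other single arrays they became 30 (first control of day 1), 38 (first BMP4 of day 1), 30 (first control of day 2), 48 and 46 (the BMP4 arrays of day 2) for the intermediate population, and 30 (first control of day 1), 29 and 34 (the controls of day 2) and 30 (second BMP4 of day 2) for the early one.

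Sparcl1 had the largest difference in favour of the intermediate population among the 40 genes past the threshold without the block, and it passed under all 26 alternative settings. Its arrays in forelimb cells are given above. In the early population it read 7.51, 7.07, 7.82 and 7.69 with BMP4, against 7.92, 7.95, 8.10 and 8.38 in control cultures. BMP4 arrays were thus above the controls in forelimb cells and below them in hindlimb cells. The responses were 1.65 and -0.56, and they differed by 2.21 ± 0.17 (adjusted p = 2.85e-06). Chst11, described above for cartilage, responded with 0.95 in the intermediate and -0.87 in the early population (difference 1.82 ± 0.30, adjusted p = 0.0108). Ptch1, the hedgehog receptor and a target of hedgehog signalling, responded with 0.63 and -1.19 (difference 1.82 ± 0.36, adjusted p = 0.0273), and Ihh, the hedgehog ligand of maturing cartilage, with 0.55 and -0.79 (difference 1.35 ± 0.29, adjusted p = 0.0399). For the intermediate response, the dimmer probe sets of Ptch1 gave -0.02 and 0.13.

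Further genes responded more positively in the intermediate than in the early population. Papss2, which makes the sulfate donor for proteoglycans, responded with 0.41 in the intermediate and -0.87 in the early population (difference 1.28 ± 0.27, adjusted p = 0.0343), and Dlx5 with 0.55 and -0.62 (difference 1.17 ± 0.24, adjusted p = 0.0337). Bmp2 responded with -0.55 and -1.59 (difference 1.04 ± 0.21, adjusted p = 0.0337) and Twist2, a helix-loop-helix factor of mesenchyme, with -0.04 and -1.27 (difference 1.24 ± 0.17, adjusted p = 0.00251). Over the 25 cartilage matrix genes the median response was 0.15 in the intermediate, -0.85 in the early and 0.77 in the late population. The median difference between intermediate and early was 0.95, beside -0.02 for all genes, and 2 members passed, Chst11 and Papss2. With the replicate block 3 more passed, Matn4, a matrilin of cartilage matrix (difference 2.57 ± 0.60, adjusted p = 0.0644, and 0.00702 with the block), Cnmd, the secreted chondromodulin (2.48 ± 0.55, adjusted p = 0.0508, and 0.0109 with the block), and the proteoglycan Acan (1.59 ± 0.37, adjusted p = 0.0644, and 0.0262 with the block). Bcl2, an inhibitor of apoptosis, responded with 0.05 and -1.98 (difference 2.03 ± 0.40, adjusted p = 0.0272), and Trim47, an E3 ligase family protein, with 0.07 and -1.76 (difference 1.83 ± 0.25, adjusted p = 0.00223). Over 26 alternative settings Twist2 and Trim47 passed in all, Chst11 in 24, Ptch1, Dlx5, Bmp2 and Bcl2 in 13 and Ihh and Papss2 in 11, each with the same sign throughout.

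For 44 genes the intermediate response was the more negative one, and the responses of those named here were positive in hindlimb cells. Gata6, a factor of heart and endoderm that marks anterior limb mesenchyme, read 6.71, 7.45, 6.23 and 6.64 with BMP4 in the intermediate population, against 6.98, 6.54, 6.78 and 7.02 in its control cultures. In the early population it read 8.56, 8.78, 8.61 and 9.15 with BMP4, against 5.87, 6.06, 5.87 and 5.87 in control cultures. Media overlapped in the intermediate and stood apart in the early population (difference of the responses -2.93 ± 0.42, adjusted p = 0.00299). Kit, the stem cell factor receptor, responded with 0.57 and 2.60 (difference -2.04 ± 0.37, adjusted p = 0.0218). St8sia4, which adds polysialic acid to adhesion molecules, responded with 0.55 and 2.89 (difference -2.34 ± 0.23, adjusted p = 7.06e-05), and Gpr22, an orphan receptor, with 0.13 and 2.36 (difference -2.23 ± 0.26, adjusted p = 0.000359). Spock3, a matrix proteoglycan, and Ralyl, an RNA-binding protein, differed by -2.15 ± 0.39 and -2.11 ± 0.25 (adjusted p = 0.0222 and 0.000359). Adamts8, a metalloprotease, responded with -1.36 and 0.51 (difference -1.87 ± 0.36, adjusted p = 0.0262), and Zfp804a, a zinc-finger protein, with 1.20 and 3.02 (difference -1.82 ± 0.26, adjusted p = 0.00299). Dcn, the small proteoglycan decorin, responded with -0.04 and 1.58 (difference -1.62 ± 0.25, adjusted p = 0.00593). Tbx20 responded with 2.64 and 4.65 and passed only with the replicate block (difference -2.02 ± 0.51, adjusted p = 0.0911, and 1.89e-05 with the block).

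**Figure D5:**
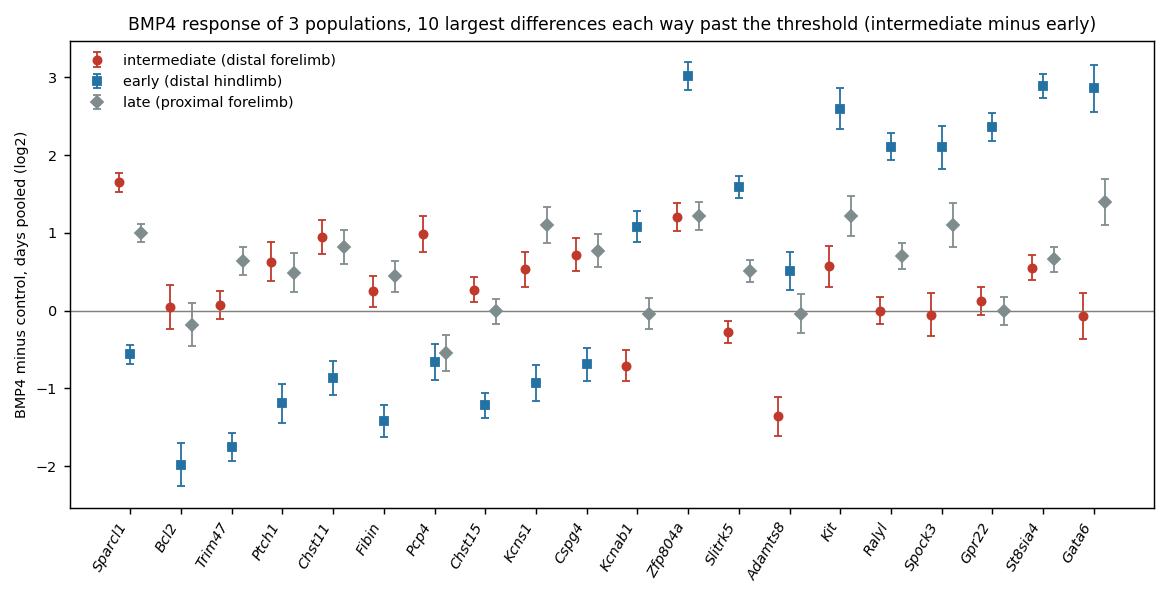
BMP4 minus control difference (log2, days pooled) in the intermediate (red), early (blue) and late (grey) population, with the SE of the 24-array fit, for the 10 genes with the largest difference between intermediate and early in each direction among those past the threshold without the block. Sparcl1 is at 1.65, -0.56 and 1.00 and Gata6 at -0.07, 2.86 and 1.40 in that order of populations.

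Against the proximal forelimb no difference of the response passed in limma's fit (0% of the genes). At an unadjusted p under 0.05 there were 665 genes, no gene passed with the replicate block, and 1 passed without the second BMP4 array of day 2 of the late population. A p above the threshold does not show that the responses were alike. The genes that rose in the intermediate population stood in the late one at 2.60 for Tbx20, 1.69 for Nog, 1.00 for Sparcl1, 0.65 for Isl1, 0.66 for Kif26b, 0.40 for Cd36 and -0.06 for Csf1r. The macrophage list had a median of 0.62 in the intermediate, 0.96 in the early and 0.05 in the late population, and none of its 14 members passed for either difference between populations.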

How the data were processed

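Arrays of 8 samples of the intermediate population (BMP4 and control, days 1 and 2) were analysed, with 16 of the early and late populations for comparison. Groups came from the labels. Deposited values are MAS5 signal intensity on a linear scale, per the submitters' processing notes. How MAS5 was set is not given in the sources used here. Each array has a trimmed mean of 150, and no detection calls were used. Values were used as log2(signal + 16), so differences of dim genes are understated. Of 45101 probe sets, 34945 had 1 gene symbol in the platform annotation, 932 several, 9160 none and 64 were array controls. Probe sets above their array's 40th percentile (signal 21.3 to 30.1) on at least 2 arrays were kept, and the brightest of each gene was used. Of 175 other probe sets of named genes, 146 had the same sign. R 4.3.3 and limma 3.58.1 were used for the tests, with a mean-variance trend, two-sided, with Benjamini-Hochberg adjustment over all genes at 0.05, on day plus treatment (5 residual and 5.03 prior degrees of freedom), on 4 group means for single days, and on 12 group means of 24 arrays for the populations. The procedure was tested on simulated data.

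Same-numbered arrays of the 4 groups correlated in their deviations from the group means at r of 0.23 to 0.37 in all 6 pairs of groups. This is the ground for using the numbers as blocks, and no label states a shared batch. BMP4 and control groups of the same day were at 0.23 on each day, and groups of different days at 0.26 to 0.37. These values do not single out pairs within a day from numbers shared across days. P-values measure the spread between these cultures, which may be partly technical. The 36 gene lists (571 genes, 489 tested) and the genes always named were chosen with earlier results of these data known. Named genes were the largest changes past the threshold, up to 15 each way for the pooled comparison and 6 for each difference, the members of each list with the lowest adjusted p (up to 4), and 13 always; genes of the paired fit, the list members given without a p, and the further population differences were chosen after their values were seen. Lists were described by counts and medians and were not tested. Promoters came from RefSeq GRCm38.p6. Alternatives were another pseudocount, filter, scaling, trend, probe set rule, fit or block, and leaving out arrays.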

Additional observations from a re-analysis of the deposited data

Results flagged for a closer look

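The response to BMP4 of the intermediate minus that of the early population passed the test of the difference itself for 23 of the genes named. The intermediate response was the more positive one for Sparcl1 by 2.21, Bcl2 by 2.03, Trim47 by 1.83, Ptch1 by 1.82, Chst11 by 1.82, Fibin, a secreted factor of fin and limb development, by 1.66, Ihh by 1.35, Papss2 by 1.28, Twist2 by 1.24, Tbx18, a T-box factor, by 1.17, Dlx5 by 1.17 and Bmp2 by 1.04 on the log2 scale. It was the more negative one for Gata6 at -2.93, St8sia4 at -2.34, Gpr22 at -2.23, Spock3 at -2.15, Ralyl at -2.11, Kit at -2.04, Adamts8 at -1.87, Zfp804a at -1.82, Dcn at -1.62, the retinoic acid receptor Rarb at -1.61 and the guidance cue Sema3a at -0.74. Over the 26 alternative settings, Sparcl1, Trim47, Twist2, Gata6, St8sia4, Gpr22 and Ralyl passed in all, Dcn in 25, Fibin and Zfp804a in 24, Spock3 in 21, Adamts8 and Kit in 18, Sema3a in 16, Rarb in 15 and Tbx18 in 13. Gpr22 and Ralyl were near the floor of the scale in the intermediate population, as given above.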

How the results depend on the processing

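The pooled count of 10 genes was 4 with a pseudocount of 1 or of 64, 2 without the low filter, 5 with quantile normalization, 1 without the mean-variance trend, 3 with the mean over probe sets, 5 with 4 group means, 90 with the 24 arrays and 77 with all 30; it was 105 with the replicate block of number within day and 137 with the block of number across days, and 1 to 5 when an array was left out. The day 1 count of 0 was 1 with a pseudocount of 64, 5 with median centring, 42 with 24 arrays, 36 with 30, 58 with the block of number across days and 0 to 8 without single arrays. The day 2 count of 0 was 1 with 24 or 30 arrays, 5 with the block of number across days and 0 to 1 without single arrays. The difference between the days had 0 genes in every setting run. The 84 genes that separated intermediate from early were 16 with only the 16 arrays compared, 276 with the block of number across days and 29 to 227 without single arrays. Intermediate against late gave 0 to 1 without single arrays and 0 otherwise. The setting with all 30 arrays added the day 0 arrays, some of which carried limb markers against their labels. The second day 0 array of the intermediate population read 4.68 for Tbx5 and 9.43 for Pitx1, and that of the early one 8.5 and 5.9. The 24-array fit held 9 of the 10 pooled genes and 47 of the 105 of the paired fit. Of the genes named, none that passed a threshold changed sign in the settings run for it. Median centring moved the median of all genes by over 0.1 at day 2 only, from 0.013 to -0.12, and by as much for the difference between days. With 2 arrays a group, no detection calls and 1 spread per gene, small differences of dim genes could not be resolved.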
